A study of Caenorhabditis elegans with 3 samples.

Results

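Y5F2A.4 is a Caenorhabditis elegans protein with a C2H2-type zinc finger, and the regions described here are the X chromosome regions, away from tRNA genes, where chromatin immunoprecipitation gave its tagged form a high signal. The authors' candidate regions for both replicates together were taken without the mitochondrial genome, ranked by the authors' signal value, and the 2500 strongest were kept. Members were those on X whose summit, the point the authors marked in each region, lay more than 200 bp from any annotated tRNA gene. They numbered 243 of 28443 candidates. X held 386 of the 2500, and the other 143 lay within 200 bp of a tRNA gene. The signal value therefore chose the members, and it is given below as a description.

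All libraries came from strain OP682, which carries the mutation unc-119(tm4063) and the integrated transgene wgIs682, written Y5F2A.4::TY1::EGFP::3xFLAG + unc-119(+). Whole worms of mixed sex were collected as L4 larvae at 48 hours, after starvation at L1 following bleaching, and an antibody against GFP recovered the fusion protein. There were 2 biological replicates and a single group, with 2 technical libraries of replicate 1 that share 1 alignment and 1 library of replicate 2, so no contrast between conditions exists. All worms belonged to 1 transgenic line. Because whole worms were used, cell types cannot be told apart. The lists give regions without read counts, so depth is unknown. The candidate lists include background as well as peaks, and all coordinates are in assembly ce11.

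The X chromosome of C. elegans is known for dosage compensation. In XX hermaphrodites a condensin-like complex binds both X chromosomes and lowers their expression, so that it matches that of males with a single X. The complex is brought to X by SDC-2 and its partners at recruitment sites called rex sites, which carry clustered copies of a short sequence, the MEX element, and from there it spreads along the chromosome. The dosage compensation complex was not measured here and no catalogue of rex sites was used, so the sequences below are matches of letters only.

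The windows of 50 bp to each side of the summit (101 bp) carried the clearest feature that the selection did not use. Members are numbered by combined signal, region 1 being the strongest. Words were searched on both strands. GCGCAGG and CAGGGAG are parts of the MEX element, and GCGCAGGGAG, in which they share 4 bases, counts as both. CGAAGGG was added after it had been seen in the windows of the strongest members. The following windows of the strongest members are shown because they hold these words, in capitals, on the strand shown or on the other, where they read CCTGCGC, then CTCCCTG for the second word, and CCCTTCG for the third. They are read from the plus strand of the RefSeq genome sequence of the ce11 assembly.
region 1: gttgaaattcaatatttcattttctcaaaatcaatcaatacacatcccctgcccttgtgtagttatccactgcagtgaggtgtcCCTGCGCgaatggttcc
region 2: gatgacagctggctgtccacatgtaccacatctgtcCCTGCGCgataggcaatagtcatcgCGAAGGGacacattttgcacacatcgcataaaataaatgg
region 3: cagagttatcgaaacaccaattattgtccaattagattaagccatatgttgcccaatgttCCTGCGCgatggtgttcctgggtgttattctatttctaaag
region 4: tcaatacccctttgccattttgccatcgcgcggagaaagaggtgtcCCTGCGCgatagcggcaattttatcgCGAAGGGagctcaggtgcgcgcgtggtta
region 5: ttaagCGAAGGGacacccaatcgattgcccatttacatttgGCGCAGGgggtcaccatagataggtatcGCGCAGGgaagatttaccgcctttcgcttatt
region 8: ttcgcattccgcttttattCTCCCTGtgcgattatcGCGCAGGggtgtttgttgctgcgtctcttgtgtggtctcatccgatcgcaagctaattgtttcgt
region 10: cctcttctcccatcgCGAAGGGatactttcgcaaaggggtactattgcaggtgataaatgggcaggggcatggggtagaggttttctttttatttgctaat
region 11: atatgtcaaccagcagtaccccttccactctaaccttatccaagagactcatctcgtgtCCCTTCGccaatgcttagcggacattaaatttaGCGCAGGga
region 13: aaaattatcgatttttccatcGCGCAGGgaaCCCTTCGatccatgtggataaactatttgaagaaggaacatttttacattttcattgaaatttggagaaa
region 15: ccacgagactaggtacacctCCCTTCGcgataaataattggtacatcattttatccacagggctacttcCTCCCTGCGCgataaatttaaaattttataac
region 22: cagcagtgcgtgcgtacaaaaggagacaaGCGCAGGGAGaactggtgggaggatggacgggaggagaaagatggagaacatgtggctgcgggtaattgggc

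Region 1 is at chrX:11094143-11094243, region 2 at chrX:14525865-14525965, region 3 at chrX:16682040-16682140 and region 4 at chrX:4209221-4209321. Region 5 is at chrX:6296507-6296607, region 8 at chrX:806638-806738, region 10 at chrX:1627092-1627192 and region 11 at chrX:5429498-5429598. Region 13 is at chrX:8036414-8036514, region 15 at chrX:2997052-2997152 and region 22 at chrX:4395586-4395686. Regions 2, 4, 11 and 13 hold a GCGCAGG and a CGAAGGG together in these windows, while region 5 holds 2 copies of GCGCAGG beside a CGAAGGG. Region 15 holds GCGCAGGGAG and a CGAAGGG, and region 22 holds GCGCAGGGAG alone.

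Not every strong member had such a word. Region 12 at chrX:11937430-11937530 and region 14 at chrX:12363198-12363298, with signals of 267 and 256, are shown as windows with none. Region 39 at chrX:16612521-16612621 and region 51 at chrX:7823200-7823300, in the promoters of ain-1 and eef-1A.2, hold the word GAGAGA, in capitals here, which was common in weaker members.
region 12: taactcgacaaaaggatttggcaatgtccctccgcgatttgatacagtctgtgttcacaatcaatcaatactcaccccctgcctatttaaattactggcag
region 14: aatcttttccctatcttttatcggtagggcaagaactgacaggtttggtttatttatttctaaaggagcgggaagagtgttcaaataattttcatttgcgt
region 39: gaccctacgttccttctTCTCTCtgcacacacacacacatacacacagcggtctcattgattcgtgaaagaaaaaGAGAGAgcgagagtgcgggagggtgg
region 51: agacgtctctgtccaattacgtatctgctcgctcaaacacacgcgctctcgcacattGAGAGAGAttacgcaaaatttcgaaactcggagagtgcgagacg

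GCGCAGG lay in the windows of 17 of 243 members (7.0%, 95% Clopper-Pearson interval 4.13 to 11) and CAGGGAG in those of 9 (3.70%, interval 1.71 to 6.91). In the list of replicate 2 alone the CAGGGAG share was 2.11%, and in that of replicate 1 alone 3.78%. Of the 1945 autosomal regions chosen by the same rule, 17 held GCGCAGG (0.874%) and 12 held CAGGGAG (0.617%). Both differences were called by a two-sided Fisher's exact test with Benjamini-Hochberg adjustment over 14 features, the 10 motifs and 4 genic settings, with adjusted p of 2.01e-07 for GCGCAGG and 9.16e-04 for CAGGGAG. The test called 4 of the 14 features (28.6%), the others being exons and distal intergenic sequence. Regions are the unit of this test, so its p does not measure the spread between worms. The other 8 motifs were not called. GAGAGA, for example, stood at 17.3% of members and 13.3% of autosomal regions (difference 4.02 percentage points, adjusted p = 0.259 by Fisher's exact test). Both sets come from 1 list, so they share its unknown depth.

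GCGCAGG was no commoner on X as a whole. X carried 20.1 copies per Mb and the autosomes 19.9, or 357 and 1640 copies, and the word lay in 0.184% of 175435 windows of the same length tiled over X. It lay in 0.385% of the 3899 X candidates away from tRNA genes that were not members. Among the 143 X regions near tRNA genes 0 held it, which allows a share of up to 2.10% (3 counts of the total, counting error only). Those regions instead held GGTTCGA, from the B box inside tRNA genes, in 37.1% of windows, against 1.65% of members.

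Longer forms of the word were rarer per Mb on the autosomes than on X. GCGCAGGG, at 4.57 copies per Mb of X and 2.82 of the autosomes, lay in 14 members and 1 autosomal region. ATCGCGCAGG had 20 copies on X and 14 on the autosomes. Of those on X, 8 (40%) lay in member windows, and 0 autosomal regions held it. ATCGCGCAGGGA had 10 copies on X, 5 of them in member windows (50%), and 1 copy on the autosomes. The extension of the word was chosen after the windows had been seen, so these counts are a description.

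The words were concentrated in the strongest members. Of the 25 strongest, 12 held GCGCAGG (48%, interval 27.8 to 68.7), 4 held CAGGGAG (16%, interval 4.54 to 36.1) and 9 held CGAAGGG (36%, interval 17.97 to 57.5). Of the other 218, only 5 held GCGCAGG (2.29%, interval 0.749 to 5.27), 5 CAGGGAG and 2 CGAAGGG. At least 1 of the 3 words lay in 26 members (10.7%), made up of 16 of the 25 strongest (64%) and 10 of the other 218 (4.59%). The share was 1.85% of autosomal regions, 1.23% of the other X candidates and 0.832% of X windows. In steps of 25 members by falling signal the counts were 16, 3, 0, 1, 2, 0, 2, 0 and 1, with 1 in the last 18. Of the 25 strongest autosomal regions, all with a signal of at least 273, 3 held GCGCAGG which is 12%, and 0 held either of the other words. The 25 strongest members ran down to a signal of 147 and are a larger part of their set, so the groups are not of like signal. Of the other 1920 autosomal regions 14 held GCGCAGG (0.729%), so this word was also commoner at the top of the autosomal list. The 17 autosomal regions with it had a median signal of 89.4, against 76.9 for all autosomal regions, and 8 of them were thresholded. The strongest was the fifth by signal.

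**Figure D1:**
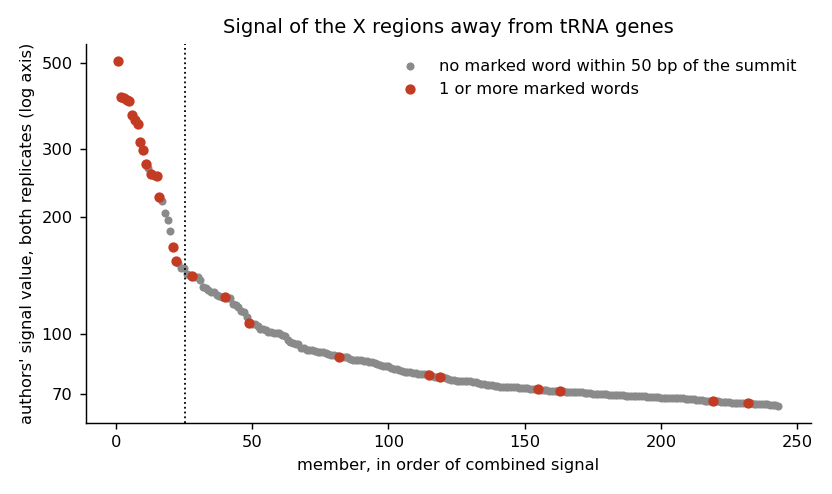
Authors' combined signal value of each of the 243 members (log axis) against its order, with members that hold at least 1 of the 3 words within 50 bp of the summit in red. To the left of the dotted line, which closes the 25 strongest, 16 members hold a word, and to the right 10 of 218 do. CGAAGGG, 1 of the 3 words, was picked from windows of the strongest members.

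With GCGCAGGGAG counted as both of its words, more than 1 word lay in 10 members, 8 of them among the 25 strongest. Region 22 is counted only through that single stretch. The most in 1 window was 3, in regions 5 and 15, and in region 15 that stretch gave all but 1 of them. The words also lay close to the summit. CGAAGGG, however, was picked from windows of 50 bp to each side of the summits of the strongest members. The shares by distance count all 3 words, so for these members they were partly fixed in advance. Shares by distance for GCGCAGG and CAGGGAG alone are not given. Among the 25 strongest, 44% had a word within the first 50 bp on the side of rising coordinates and 36% on the other side. The shares fell to 24% and 12% in the next 50 bp. The other members had 4.13% and 1.38% in the inner bins. In all autosomal regions together the rise was small, with 1.08% and 0.874% in the inner bins and 1.18% and 0.720% in the next. It was 0.257% to 0.823% in the bins further out. Positions in the strongest autosomal regions alone are not given, so the 25 strongest members have no autosomal set of like signal beside them here. The word GTGGATA was also picked from windows of the strongest members. It lay in 7 members (2.88%), 5 of them among the 25 strongest, and in 0.925% of autosomal regions.

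**Figure D2:**
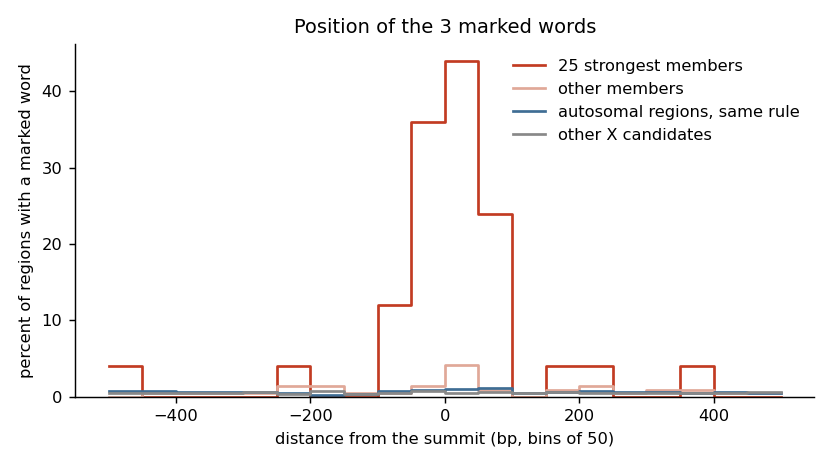
Share of regions (percent) with at least 1 of the 3 words in each bin of 50 bp, by distance of the word from the summit (bp), for the 25 strongest members, the other members, autosomal regions of the same rule and the other X candidates. The line of the 25 strongest members rises to 36% and 44% beside the summit, and that of the other members reaches 4.13%. The words include CGAAGGG, which was picked from windows of the strongest members, so their rise was partly fixed in advance.

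The strongest member was region 1 at chrX:11094078-11094334, with a combined signal of 506, and 184 in replicate 1 and 322 in replicate 2. It lay in distal intergenic sequence, 3993 bp downstream of the nearest 5' end, that of W02H3.3, and it ranked 6 in replicate 1 and 3 in replicate 2. Region 2, with 408 combined, 148 in replicate 1 and 251 in replicate 2, lay at -734 bp from the 5' end of nspc-17, a gene of a nematode-specific family with close copies nearby. Its window held no 36-base stretch found elsewhere in the genome. Both replicates placed these regions among their 18 strongest nuclear candidates.

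Region 3 at chrX:16682003-16682228 had 405 combined, 152 in replicate 1 and 252 in replicate 2, and region 4 at chrX:4209155-4209390 had 402, 116 and 286. Region 5 at chrX:6296423-6296717 lay in an intron of mom-1, which encodes a Porcupine-like protein needed for Wnt secretion, with 398, 132 and 266. Region 13 at chrX:8036306-8036537 had a signal of 258, with 112 in replicate 1 and 161 in replicate 2. Its summit was at -4849 bp from xol-1, negative positions being upstream of the 5' end. That gene is the switch that sets male development. Region 13 passed the selection narrowly, since a tRNA gene lay 221 bp from its summit. In each of these regions the value was higher in replicate 2, though the lists were scored separately and their scales need not match.

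Below them, region 11 lay in coding sequence of pks-1, which encodes a polyketide synthase (signal 274, with 109 in replicate 1 and 171 in replicate 2). Region 10 lay at -995 bp from fbxb-58 (signal 299, with 109 and 191). Region 16 lay at -674 bp from ins-39, which encodes an insulin-like peptide (signal 226, with 72.1 and 153). Region 22, whose window holds GCGCAGGGAG, had dpy-23, the gene of an AP-2 adaptor subunit, as nearest 5' end, at 6277 bp (signal 154, with 62.5 and 88.1). The remaining members of the leading group with a word were regions 6, 7, 8, 9, 15 and 21, with signals from 168 to 367. Nearest to them were ZK899.6, T27A8.7, gtr-1, K02D3.1 and, for region 15, the gene Y41G9A.17, whose intron holds it. Region 21 has a nearest gene for which the annotation gives only an identifier. Its window also held GGTTCGA, the B box word, though the nearest annotated tRNA gene lay 20929 bp away.

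The 9 leading members without a word were regions 12, 14, 17 to 20 and 23 to 25, with signals from 147 to 267. They included region 17 in the promoter of serp-1.1 (signal 220, with 93.7 in replicate 1 and 119 in replicate 2). Region 19 lay at -561 bp from spat-3, which encodes a RING finger protein related to Polycomb group proteins (signal 196, with 101 in replicate 1 and 98.2 in replicate 2). Region 20 lay 26 bp from the snoRNA gene C53B7.8, a kind of gene that guides RNA modification (signal 184, with 91.5 and 93.7). Region 23 lay in an intron of pdk-1, a kinase gene of insulin signalling (signal 152, with 56.7 and 95.9). Region 18 was in the promoter of T13C5.6, and regions 12, 14, 24 and 25, in distal intergenic sequence, were nearest to F55G7.5, F19H6.5, ZC53.1 and F56C3.1.

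Signal fell steeply over the first members and slowly after that. The 25 strongest ran from 147 to 506 with a median of 258, and the other 218 had a median of 74.0. Over all members the median was 76.2. Members just inside the limit had 65.4, 65.3 and 65.1, and X candidates just outside it had 65.02, 65.01 and 64.7. The 26 members with 1 of the 3 words had a median signal of 240 (66.0 to 506) and the 217 without one a median of 75.0. CGAAGGG, 1 of these words, was picked from windows of the strongest members, so this difference was partly fixed in advance.

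A candidate summit lay within 200 bp of 238 member summits in replicate 1 and 238 in replicate 2 (97.9% each), and of 233 in both. The shares were 95.5% and 97.4% of autosomal regions and 99.3% and 100% of X regions near tRNA genes, so those of members are near the background. The nearest such summit gave the replicate's value. The median signal was 36.6 in replicate 1 (14.9 to 184) and 46.4 in replicate 2 (22.2 to 322). For the 25 strongest, the medians were 109 and 161. The ratio of replicate 2 to replicate 1 had a median of 1.35 over members, 1.69 over the 25 strongest and 1.23 over autosomal regions. The correlation across the 233 members was 0.619 by Pearson's r on the log2 scale and 0.258 by Spearman's rho. Leaving out the 25 strongest, Spearman's rho was -0.0269 over the 208 members with both values. Members share libraries, and neighbouring members can share 1 candidate of a replicate, so the correlations are a description. The signals of both replicates enter the combined signal that chose the members. The correlations therefore cannot show how far the replicates share an order.

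**Figure D3:**
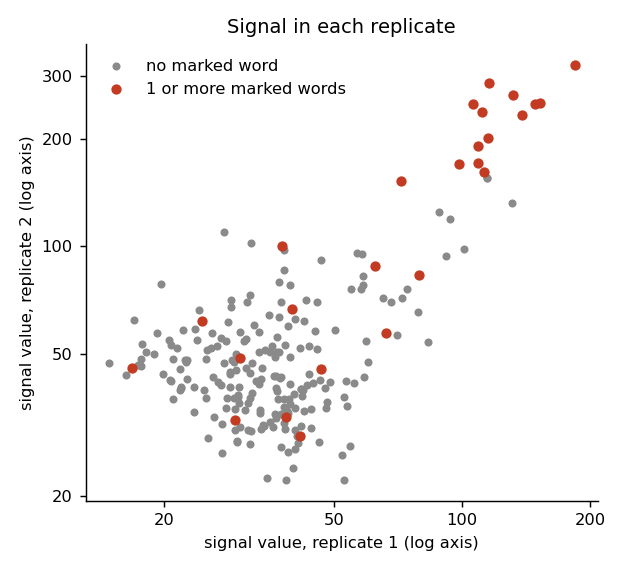
Signal value in replicate 1 against replicate 2 (both log axes) for the 233 members with a candidate summit within 200 bp in both lists, in red where at least 1 of the 3 words lies within 50 bp of the summit. The red points at the upper right, up to 184 and 322, are the leading members, and most of the weaker members lie below 100 in both. The words include CGAAGGG, which was picked from windows of the strongest members.

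The authors' thresholded list, derived with the irreproducible discovery rate, held 620 nuclear regions, which is 2.18% of all 28426 nuclear candidates and 24.8% of the 2500 strongest. Of the members 58 were thresholded (23.9%), close to that background, and all 25 strongest were among them. Of the 26 members with 1 of the 3 words, 19 were thresholded. The thresholded members were exactly regions 1 to 58 in order of combined signal. These counts therefore restate the signal that chose the members and are no separate support. Being among the 2500 strongest of both replicates was shared by 82 members (33.7%), against 36.8% of the 2500 strongest in all. Of the X regions near tRNA genes 69.9% were.

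A few members had a candidate summit within 200 bp in only 1 replicate list. The strongest, at chrX:6743800-6744175 and 1637 bp downstream of the 5' end of mdl-1, had a combined signal of 86.8, and 28.8 in replicate 1. The nearest summit in replicate 2 was 232 bp away, just past the matching distance, with a signal of 39.7, and this region overlaps another member that was matched to it. The next, at chrX:15535253-15535628 and nearest to olrn-1, had a combined signal of 72.3 and 21.4 in replicate 1, and the nearest summit in replicate 2 was 211 bp away with a signal of 45.3. The third, at chrX:9198268-9198643 and nearest to crb-3, had a combined signal of 70.8 and 59.8 in replicate 1. There the nearest summit in replicate 2 was 4803 bp away, so this region was not detected in replicate 2 at its unknown depth.

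By genic setting, 73 members lay in distal intergenic sequence (30.0%, interval 24.3 to 36.2), 68 in a promoter (28.0%, interval 22.4 to 34.1), 59 in an intron (24.3%, interval 19.0 to 30.2) and 43 in an exon (17.7%, interval 13.1 to 23.1). A promoter ran from 1000 bp upstream to 200 bp downstream of a protein-coding 5' end, and promoters were assigned first, then exons, then introns. Distal intergenic members were more frequent than among autosomal regions, where they made up 16.5% (difference 13.6 percentage points, adjusted p = 6.07e-06 by Fisher's exact test). Exons were less frequent, against 28.2% (difference -10.5 points, adjusted p = 0.0014 by the same exact test). From replicate 1 alone the exon difference was -7.14 points and no longer called (adjusted p = 0.0877 in the exact test), and with 50% as many candidates kept it was -10.2 (adjusted p = 0.0608 in the same exact test). Promoters (33.0% of autosomal regions) and introns (22.4%) were not called, the exact test giving adjusted p of 0.273 and 0.802.

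Beside X sequence, the shares compared differently. Of all X positions 32.3% were distal intergenic, 28.9% intronic, 21.2% exonic and 17.6% in promoters. Of the other X candidates 24.8% were distal intergenic and 18.6% in promoters. The promoter share of members, 28.0%, thus stood above both, with intervals that did not overlap those of the other X candidates. The distal share of members was close to that of X. Of the 143 X regions near tRNA genes 47.6% were distal intergenic and 0.699% in exons. Both shares lay further from those of autosomal regions than the shares of members did, so neither trait is particular to members. Shares of all autosomal positions are not given here. The part that chromosome make-up plays in the distal and exon differences from autosomal regions was therefore not tested. The 25 strongest differed most, with 15 distal (60%, interval 38.7 to 78.9), 6 in promoters, 3 in introns and 1 in an exon. Of the 26 members with 1 of the 3 words, 16 were distal, 5 in promoters, 3 in introns and 2 in exons. These words include CGAAGGG, picked from windows of the strongest members.

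**Figure D4:**
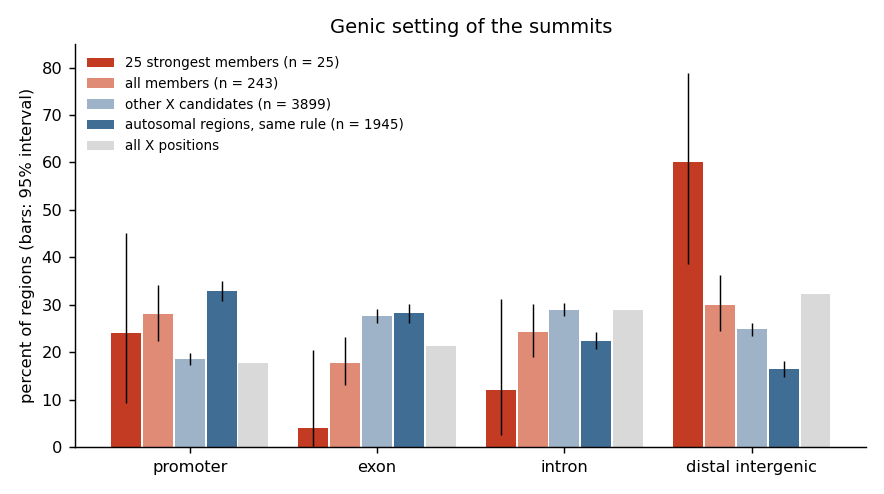
Share of summits (percent) in promoters, exons, introns and distal intergenic sequence for the 25 strongest members, all 243 members, 3899 other X candidates, 1945 autosomal regions of the same rule and all X positions. Lines are 95% Clopper-Pearson intervals. The tallest bar is the distal share of the 25 strongest at 60%.

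Promoter members belonged to 67 of the 2731 protein-coding genes of X (2.45%). Their summits had a median position of -323.5 bp from the nearest 5' end, 60 of 68 being upstream and 37 within 500 bp upstream. Beyond the leading group, the strongest were at epg-7, an autophagy gene (signal 143, with 65.1 in replicate 1 and 71.7 in replicate 2), and sto-4, a stomatin gene (signal 142, with 57.9 and 75.7). Next came ftt-2, which encodes a 14-3-3 protein (138), grk-1, a G protein-coupled receptor kinase gene (132), and hsp-3, which encodes a chaperone of the endoplasmic reticulum (128). Next by signal were zfp-3 (126), ain-1 of the microRNA silencing complex (125), puf-9 of the Pumilio family (120), epn-1, which encodes an epsin (118), pkhm-2 (106), the translation elongation factor gene eef-1A.2 (106) and the Mad-like factor gene mdl-1 (104). A member also lay at -373 bp from sdc-2 itself, chosen for mention after its values were seen. Its signal was 70.05, with 36.5 in replicate 1 and 33.9 in replicate 2, it was not thresholded, and it held none of the 3 words.

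Gene families listed by symbol gave few hits beside the share of 2.45%. Collagen genes had 1 of 27 (col-184, signal 79.0), nspc and nspd genes 1 of 18 (nspc-17), chaperone genes 1 of 5 (hsp-3) and insulin-like genes 1 of 2 (ins-39). The other 12 families had 0, including 0 of 32 neuropeptide genes, 0 of 28 chemoreceptor genes, 0 of 24 genes for acetylcholine receptors and ligand-gated channels and 0 of 23 nuclear hormone receptor genes. The X signal elements sex-1, fox-1 and ceh-39, which count X chromosomes in the embryo, had 0 in their promoters, but fox-1 held 1 member in its coding sequence (signal 72.3) and 1 in an intron (signal 69.7). At 2.45% these sizes would give fewer than 1 gene each, so no absence can be read from them, and members inside genes are not counted.

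Divergent promoters, with 5' ends on both strands, held 3 members (1.23%, interval 0.255 to 3.57), near C31E10.5, trap-2 and snrp-40.1, and 5.60% of autosomal regions. They made up 0.659% of X positions, and held 0.513% of the other X candidates and 1.40% of X regions near tRNA genes. The member share was thus low beside autosomal regions but not beside X, which was not tested. Among exonic members 34 of 43 lay in coding sequence, 3 in 5' and 6 in 3' untranslated parts. The strongest after pks-1 were in nlf-1 (signal 123) and igcm-3 (114), both in the 3' part, and in the coding sequence of F09E10.5 (110) and the collagen gene col-175 (102). Intronic members after mom-1, Y41G9A.17 and pdk-1 were led by kin-20, a casein kinase gene (131), and F09A5.3 (130). The heterochronic gene lin-14, a timing gene of larval development, held 4 members in its introns, with signals of 100.5, 75.5, 68.4 and 65.5.

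Annotated non-coding genes were near part of the members even without tRNA genes. An ncRNA gene lay within 200 bp of 42 members (17.3%, interval 12.7 to 22.6), against 10.03% of the other X candidates and 8.997% of autosomal regions. Among X regions near tRNA genes it was 59.4%. This was not tested. Thresholded members near such genes included those in the promoters of spat-3 (T13H2.7), sto-4 (Y71H9A.9), ftt-2 (F52D10.7), grk-1 (F19C6.9), puf-9 (W06B11.7), epn-1 (T04C10.8), eef-1A.2 (R03G5.8) and ZK816.3 (ZK816.8), the non-coding gene being given in brackets. The T13C5.6 promoter had C14F11.14. Others lay in introns of kin-20, F09A5.3, fkh-9 and lin-14, or in distal intergenic sequence at C30E1.9, with 2 members, and C53C11.7. The spat-3 promoter held 2 overlapping members, the weaker with a signal of 117, and 53.4 in replicate 1 and 41.9 in replicate 2. A snoRNA gene was near 1 member, region 20, and an snRNA gene near 1, region 40 by M163.13 (signal 124, with 66.2 in replicate 1 and 57.1 in replicate 2). No miRNA gene was near any of the 243, which allows a share of up to 1.23% by the same limit of 3 counts. A tRNA pseudogene was near 1.

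Members were spread over the whole of X, from 21180 to 17636414 bp. Divided into 3 equal parts, left, middle and right, X held 88, 80 and 75 members (36.2%, 32.9% and 30.9%), and 34.5%, 30.9% and 34.6% of the other X candidates. X regions near tRNA genes were less even, with 20.98% in the left part and 40.6% in the right. Full stretches of 1 Mb held 8 to 22 members, with a median of 13. The 25 strongest numbered 12, 6 and 7 in these parts, and the median gap between neighbours among them was 598424 bp, from 21874 to 1628318 bp. Among all members the median gap was 40203 bp, 18 members overlapped another, and 24 lay within 1000 bp of another. X held 11.1% of the regions away from tRNA genes among the 2500, on 17.7% of the nuclear genome and with 14.8% of all 27943 nuclear candidates away from tRNA genes.

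In base composition members stood above X. Their windows had a mean GC content of 47.1% (SD 9.99, n = 243), against 35.2% for X and 40.2% for the other X candidates. The 25 strongest had 47.4% (SD 7.91), beside 47.1% (SD 10.2) for the other 218. Autosomal regions had 44.9%. Leaving out forms shifted by 1 base (AGAGAG after the first and CACACA after the second), the 6-base words most above X windows were GAGAGA (17.3% of members, 4.91% of X windows) and ACACAC (15.2% and 3.94%), then CCCTGC (11.5% and 1.06%). AAAAAT (21.8% and 45.1%) and AAAAAA (17.7% and 40.6%) were furthest below. GAGAGA lay in 3 of the 25 strongest (12%) and in 39 of the other 218 (17.9%), with intervals of 2.55 to 31.2 and 13.04 to 23.6 that overlap. The 8-base word GAGACGCA lay in 12 members (4.94%) and in 0.281% of X windows, and was nearly as frequent in autosomal regions (3.70%). By contrast CCCTGC lay in 2.31% of autosomal regions. GC content moves with all these words, and its part in them was not tested.

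Region width went with the words. Most members, 227, had the common width of 376 bp, and 16 were narrower, down to 141 bp. Of those 16, 15 were among the 25 strongest and 14 held 1 of the 3 words. Narrow width went with high signal on the autosomes too, where 22 of the 25 strongest regions were narrow. Of the 57 narrow autosomal regions 4 held a word. CGAAGGG, however, was picked from windows of the strongest members, and the narrow regions 6, 9 and 10 count only through it. The counts of 14 and 4 are therefore not a like comparison. In all, 13 member windows (5.35%) held a 36-base stretch found more than once in the genome, 0 of them among the 25 strongest, close to the 5.55% of autosomal regions and 4.41% of other X candidates. Among X regions near tRNA genes the share was 70.6%.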

How the data were processed

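Per the labels, sonicated chromatin of 200 to 800 bp was precipitated using anti-GFP and set against a control, which was not analysed here. The authors deposited 4 region lists: candidates for replicate 1 (29984 nuclear regions), replicate 2 (23398) and both together (28426), and a thresholded list. Each region's signal value is a score that the authors deposited with no stated unit, used only to rank and describe regions. The sources used here name no peak caller, aligner, threshold or version, so these are not given.

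The members and lists were chosen with earlier results of these data known. Genes came from Ensembl release 115 and sequence from the RefSeq genome of the same assembly, with 276 tRNA genes on X. Settings, words, repeats and nearest 5' ends were computed at each summit with Python 3.11.15, numpy 2.4.6, pandas 2.3.3 and scipy 1.17.1, and figures drawn with matplotlib 3.10.9. The word and Fisher steps were first tested on simulated data. Fisher's exact tests at a threshold of 0.05 compared members with autosomal regions of the same rule. Shares have 95% Clopper-Pearson intervals, which cover counting error only. Replicate values came from the nearest candidate summit within 200 bp. Alternatives were 50% or 200% as many candidates, other promoter windows, tRNA distances, word windows and matching distances, thresholded members, and each replicate alone.

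Genes were named by rule: the 25 strongest members, the 5 strongest of each setting, up to 3 per family, thresholded members within 200 bp of a non-coding gene, the 3 strongest seen in 1 replicate list, and 3 candidates to each side of the limit. Promoter genes listed beyond these, lin-14's weaker members, members inside fox-1, divergent promoters and sdc-2 were chosen after their values were seen.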

Additional observations from a re-analysis of the deposited data

How the results depend on the processing

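Of 121 alternative values, 89 were scored as the same as the reported value, 28 as moved in size, 2 as weaker and 2 as reversed. The size limits of this scoring are not given here. Most of these values are shares or counts without a test. The word differences from autosomal regions were not tested again in any alternative. The higher distal intergenic share against autosomal regions was called in each alternative where it was tested, at 10.7 to 20.3 percentage points. Those were 50% as many candidates, each replicate alone, and the promoter of 500 bp upstream and 100 bp downstream. It was not tested in the other alternatives. The member count is set by the number of candidates kept, at 110 with 50% and 587 with 200% as many. With 50% as many the intron difference turned to -2.32 points (adjusted p = 0.885 in the exact test), the exon difference was -10.2 and no longer called (adjusted p = 0.0608 in that exact test), and 13.6% of member windows held GCGCAGG. When each replicate was left out in turn, the intron difference ran from -1.04 to 0.43 points and the exon difference from -13.0 to -7.14, the last without replicate 2 (adjusted p = 0.0877 in the exact test). GCGCAGG lay in 5.61% to 7.98% of member windows and CAGGGAG in 2.11%, without replicate 1, to 3.78%. GCGCAGG lay in 2.29% without the 25 strongest members, which was tried only once the data had been seen. The promoter share was 16.5% with 500 bp upstream and 100 bp downstream, 38.3% with 2000 and 200 bp, and 34.5% among thresholded members. Apart from settings whose own construction changes a share, such as the promoter window, the cause was not tested. No paired analysis was possible because the samples form a single group. Depth is unknown, so for a region missing from a list, signal too low to detect and absence of binding cannot be told apart.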
